A study of Mus musculus with 9 samples.

Results

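Histone lysine acetylation is written by acetyltransferases and erased by deacetylases, and 10 mouse genes of this machinery were followed here in 8-cell embryos. They were chosen by name, as 5 deacetylases (*Hdac1*, *Hdac2*, *Hdac3*, *Hdac6* and *Sirt1*) and 5 acetyltransferases (*Ep300*, *Crebbp*, *Kat2a*, *Kat5* and *Kat8*), and make up 10 of the 55335 entries of each library. All 10 averaged 1 FPKM or more across the 9 libraries, and so were among the 13011 genes tested. The embryos came from zygotes that had been injected with siRNA and grown to the 8-cell stage. Control embryos received nontargeting siRNA, MFN1-KD embryos received siRNA against *Mfn1*, which encodes a mitochondrial fusion GTPase, and H3.3-KD embryos received siRNA against *H3f3a* and *H3f3b* together, which encode histone H3.3. There were 3 libraries per group, each made from a pool of embryos with polyA-primed Smart-Seq2. The labels put 5 to 10 embryos in a group, the study's methods put 10, and neither says whether the 3 libraries of a group came from separate injections, so the p-values measure the spread between these libraries, which may be partly technical.

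Acetylation of histone tails neutralizes the charge of lysine, loosens the contact between histone and DNA and is read by bromodomain proteins. *Hdac1* and *Hdac2* encode the paired catalytic subunits of the NuRD, SIN3 and CoREST corepressor complexes, *Hdac3* is the catalytic subunit of the NCoR and SMRT complex, *Hdac6* acts mainly on cytoplasmic proteins such as tubulin, and *Sirt1* encodes an NAD-dependent deacetylase. *Ep300* and *Crebbp* encode the related coactivators p300 and CBP, which acetylate histone H3 at enhancers. *Kat2a* (GCN5) is the acetyltransferase of the SAGA and ATAC complexes, *Kat5* (TIP60) that of the TIP60 complex, and *Kat8* (MOF) that of the MSL and NSL complexes, which acetylate histone H4. In mouse embryos HDAC1 is the major deacetylase before implantation.

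Levels were given in FPKM, which divides the fragments of a gene by its length and by the size of the library, so levels of different genes can be set side by side per length, while the depth of each library is unknown. Between 21643 and 22507 entries were above 0 in control, between 15577 and 20842 in MFN1-KD, with MFN1-KD library 3 the lowest, and between 23655 and 24820 in H3.3-KD. The targeted genes were low in the libraries labelled for them, *Mfn1* at 5.03 ± 4.23 FPKM (SD, n = 3) in MFN1-KD against 32.6 ± 16.4 in control, and *H3f3a* at 149 ± 28.3 and *H3f3b* at 246 ± 70.3 in H3.3-KD against 1932 ± 293 and 2988 ± 154. The log2 fold change was -2.66 for *Mfn1* (adjusted p = 0.0431 from limma, lost without control 1, 2 or 3, MFN1-KD 2 or 3 or H3.3-KD 1 or 2, with an adjusted p of up to 0.158 over all alternatives), -3.69 for *H3f3a* and -3.64 for *H3f3b* (adjusted p = 7.2e-06 and 9.0e-06). Fold changes are differences of log2(FPKM + 1), which understates the change of weakly expressed genes, and p-values were adjusted over the whole table. Taken over the whole table, the median log2 difference was -0.08 for MFN1-KD against control, 0.26 for H3.3-KD against control and -0.39 for MFN1-KD against H3.3-KD. Of 10 markers of the 8-cell embryo, 7 had a mean of at least 1 FPKM in control and 8 in each knockdown, while *Sox2* and *Cdx2* stayed at or under 0.10 FPKM in control. Summed over that list the level was 125 to 204 FPKM in control and 201 to 217 in MFN1-KD, while H3.3-KD had 344 to 780. Much of the H3.3-KD sum and its spread came from *Pou5f1*, at 330, 392 and 63.1 FPKM against 5.10 to 8.90 in control. *Nanog* was not raised, at 21.2, 21.4 and 8.63 in H3.3-KD against 16.4 to 22.9 in control. Of 8 cumulus and granulosa cell markers 1 was above 1 FPKM (*Amhr2*), and the sum of that list was 16.1 to 29.8 in control and 10.2 to 19.9 in MFN1-KD, while H3.3-KD had 38.2 to 66.9, with *Fshr* listed at 0 throughout. The 3 blood markers summed to 77.8 to 96.7 FPKM in control and 18.3 to 77.9 in MFN1-KD, while H3.3-KD had 9.07 to 14.6, mostly from *Hba-a1*, the oocyte markers to 35.6 to 42.6, 24.4 to 43.8 and 31.0 to 54.0, and the sperm markers to at most 2.82. The part of these differences in the results that follow was not tested.

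Promoter sequence is shown for the members that changed in H3.3-KD and whose window upstream of the RefSeq start does not begin inside an annotated exon, so that their base composition can be compared. RefSeq (GRCm38.p6) held a promoter for 8 of the 10 members (not for *Hdac1* and *Hdac3*). The windows of *Ep300* and *Crebbp*, which fell, begin inside an annotated exon and are not printed. They were 73.2% and 84% GC. Each line gives the strand that carries the gene, 5′ to 3′, cut at the first base that lies in a GENCODE exon, and capitals mark matches of GGGCGG (GC box), CCAAT or CACGTG (E-box) on either strand.
Hdac2: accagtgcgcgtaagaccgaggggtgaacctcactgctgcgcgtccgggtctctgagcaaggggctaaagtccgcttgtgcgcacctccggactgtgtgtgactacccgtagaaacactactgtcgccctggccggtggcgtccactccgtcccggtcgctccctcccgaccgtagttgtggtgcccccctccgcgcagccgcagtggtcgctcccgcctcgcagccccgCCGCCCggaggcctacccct
Kat2a: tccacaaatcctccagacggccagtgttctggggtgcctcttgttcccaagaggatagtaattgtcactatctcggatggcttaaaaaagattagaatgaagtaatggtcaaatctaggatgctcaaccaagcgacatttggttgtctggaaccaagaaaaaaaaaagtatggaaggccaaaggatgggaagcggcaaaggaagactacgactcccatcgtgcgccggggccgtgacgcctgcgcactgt
Kat5: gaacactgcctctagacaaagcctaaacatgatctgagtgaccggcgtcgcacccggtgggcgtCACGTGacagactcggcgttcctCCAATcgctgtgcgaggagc
Sirt1: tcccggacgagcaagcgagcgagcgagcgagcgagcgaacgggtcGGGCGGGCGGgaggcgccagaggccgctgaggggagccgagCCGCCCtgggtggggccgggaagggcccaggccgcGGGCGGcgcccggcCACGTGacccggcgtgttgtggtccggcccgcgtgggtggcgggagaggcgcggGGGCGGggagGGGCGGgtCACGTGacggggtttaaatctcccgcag
The stretches lie at chr10:36974294-36974543 (plus strand, *Hdac2*), chr11:100712468-100712717 (minus strand, *Kat2a*), chr19:5610238-5610344 (minus strand, *Kat5*) and chr10:63339051-63339285 (minus strand, *Sirt1*). GGGCGG was found in 32.7% of the 250-base windows of all 32851 RefSeq promoters, CCAAT in 33.8% and CACGTG in 6.02%. The *Sirt1* window held 6 GC boxes, of which 2 overlapped, and 2 E-boxes, and was 79.2% GC over its 250 bases. This window lies inside the gene as GENCODE places it (chr10:63319005-63381704). The *Hdac2* stretch, at 68.8% GC, held 1 GC box, and the *Kat2a* window, at 48.8% GC, held none of these. The *Kat5* stretch held 1 E-box and 1 CCAAT box, and its full 250-base window was 55.2% GC. A full CRE (TGACGTCA, in 1.55% of promoters), CCGGAAG (6.91%) and GCATGCGC (2.26%) were in none of the 4 windows. A second RefSeq promoter of *Kat5*, which lies inside the gene, held 3 GC boxes. No searched motif was in all of the *Hdac2*, *Kat2a* and *Kat5* windows printed, *Hdac1* could not be included, and a match says nothing about binding.

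In H3.3-KD 7 of the 10 genes changed, against 1 in MFN1-KD. The 10 genes were chosen with earlier results of these data known, so a count above the share of all genes is no independent support. In H3.3-KD, at an adjusted p under 0.05, *Hdac1*, *Hdac2*, *Kat2a* and *Kat5* rose and *Sirt1*, *Ep300* and *Crebbp* fell, against a background of 31.0% of all genes called (21.8% higher and 9.12% lower). In MFN1-KD *Hdac1* fell and no member rose in limma (4 were higher and 1 lower at an unadjusted p under 0.05), against 3.35% of all genes called (1.15% higher and 2.20% lower). Compared directly, MFN1-KD exceeded H3.3-KD in *Sirt1*, *Ep300* and *Crebbp* and lay under it in *Hdac1*, *Kat2a* and *Kat5*, 6 of 10 members against 38.6% of all genes (11.0% higher and 27.6% lower). The count in H3.3-KD was 4 without control 2 or without H3.3-KD 2, and 5 to 7 without any other single library. The count in MFN1-KD kept its value in 4 of 19 alternatives, and was 0 without control 1, 2 or 3, MFN1-KD 1 or 2, or H3.3-KD 1 or 2. Over all genes the MFN1-KD calls, 150 higher and 286 lower, fell to 0 and 0 without control 2 or control 3 and to 0 and 1 without H3.3-KD 2. *Hdac3*, *Hdac6* and *Kat8* passed in none of the 3 comparisons. Both knockdowns were compared with the same control libraries, so the direct comparison is the test of whether their effects differ. In these pooled embryos a lower level can stand for fewer cells that express a gene or for less RNA in each cell, which cannot be told apart.

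**Figure D1:**
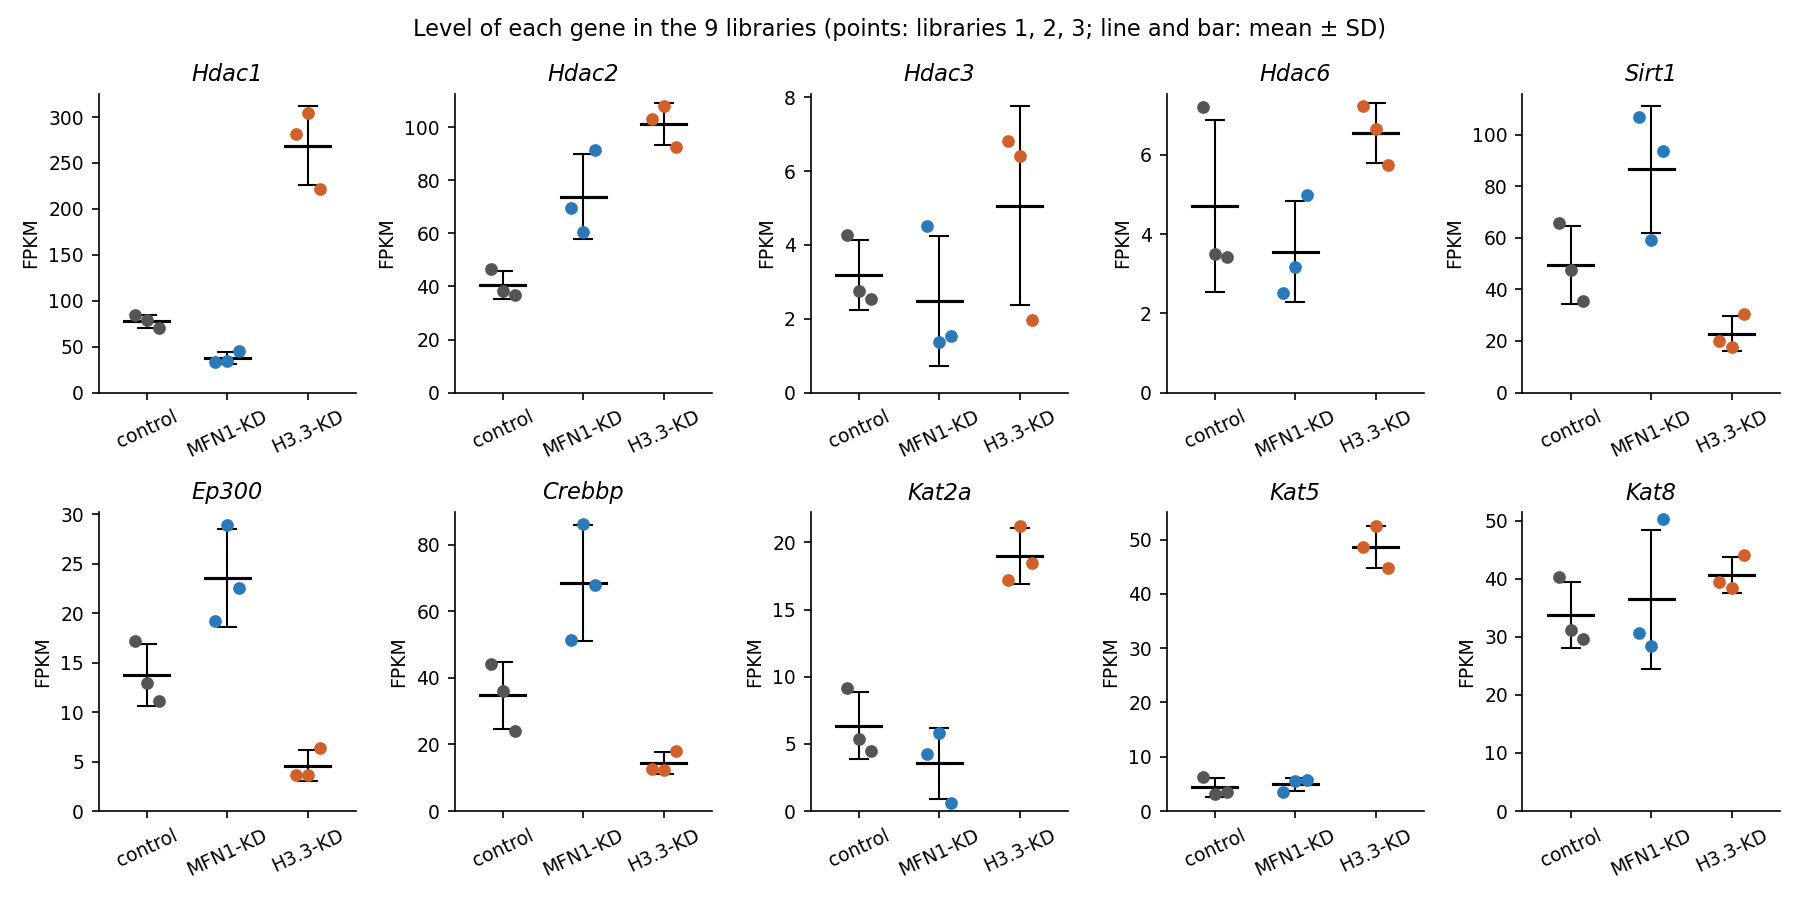
FPKM of the 10 genes in control, MFN1-KD and H3.3-KD embryos; each point is 1 library (1, 2, 3 from left to right), the horizontal line is the mean and the bar is ± SD (n = 3), and each panel has its own linear axis from 0. *Hdac1* and *Kat5* are far higher in all H3.3-KD libraries, *Ep300* and *Crebbp* are highest in MFN1-KD and lowest in H3.3-KD, and *Kat8* differs little.

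In control embryos the order of levels per length was *Hdac1* (77.7 ± 7.31 FPKM, mean ± SD, n = 3), *Sirt1* (49.6 ± 15.2), *Hdac2* (40.5 ± 5.22), *Crebbp* (34.7 ± 10.0), *Kat8* (33.7 ± 5.76), *Ep300* (13.8 ± 3.10), *Kat2a* (6.34 ± 2.5), *Hdac6* (4.70 ± 2.17), *Kat5* (4.35 ± 1.68) and *Hdac3* (3.18 ± 0.942). *Hdac1* stood above every other member in each control library. The 4 genes from *Sirt1* to *Kat8* overlapped over the 3 libraries, and so did each pair of neighbours from *Kat2a* to *Hdac3*, though *Kat2a* lay wholly above *Hdac3*. *Ep300* overlapped neither set. *Hdac1* was at the 87.8th percentile of the genes tested in control and *Hdac3* at the 34.7th.

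*Hdac1*, the most abundant of the deacetylase transcripts in control, moved in opposite directions in the knockdowns. Its level was 84.3, 78.8 and 69.8 FPKM in control libraries 1, 2 and 3. In MFN1-KD it was 33.7, 34.0 and 44.9 FPKM. In H3.3-KD it was 281, 304 and 221 FPKM. All MFN1-KD libraries were below all control libraries and all H3.3-KD libraries above them, with no overlap between any pair of groups. The rise in H3.3-KD was 1.77 on the log2 scale (95% interval 1.28 to 2.26, adjusted p = 4.1e-04 from limma) and held in all 19 alternatives tried. The fall in MFN1-KD was -1.04 (-1.53 to -0.55, adjusted p = 0.0404). The call in MFN1-KD did not hold in 13 of 19 alternatives, with adjusted p from 0.00724 to 0.24. Among single libraries it was lost without control 1, 2 or 3 (0.0883, 0.157 and 0.150), MFN1-KD 1 or 2 (0.067 and 0.0568) and H3.3-KD 1 or 2 (0.0673 and 0.0717). The difference between the knockdowns was -2.81 (adjusted p = 3.2e-05), that is, MFN1-KD stood at 14.0% of the H3.3-KD mean.

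*Hdac2*, the partner of *Hdac1* in the same complexes, was higher in both knockdowns. It was at 46.4, 38.3 and 36.7 FPKM in control, at 69.4, 60.7 and 91.6 in MFN1-KD and at 103, 108 and 92.7 in H3.3-KD. The lowest MFN1-KD library lay above the highest control library, and the lowest H3.3-KD library lay just above the highest MFN1-KD library. The rise in H3.3-KD was 1.31 (95% interval 0.80 to 1.81, adjusted p = 0.00224) and held in all 19 alternatives. In MFN1-KD the difference was 0.84 (0.33 to 1.35) with an adjusted p of 0.0723, which fell to 0.0445 when only genes of at least 10 FPKM were tested and to 0.0253 with library weights. The knockdowns differed by -0.47 (-0.97 to 0.04, adjusted p = 0.130). That difference passed without MFN1-KD library 3 (-0.63, adjusted p = 0.0452) and was 0.02 after upper-quartile scaling.

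*Sirt1*, the NAD-dependent member, fell in H3.3-KD. Its level was 65.7, 47.5 and 35.5 FPKM in control, 107, 59.2 and 93.6 in MFN1-KD and 20.1, 17.8 and 30.5 in H3.3-KD. Every H3.3-KD library was below every control library, while MFN1-KD library 2 lay within the control range. The change in H3.3-KD was -1.08 (95% interval -1.81 to -0.35, adjusted p = 0.0297). The call was kept in 14 of 19 alternatives. Among single libraries it was lost without control 1 or 2 (adjusted p = 0.103 and 0.0829) and without H3.3-KD 1 or 2 (0.0806 and 0.105). In MFN1-KD the difference was 0.79 (0.07 to 1.52, adjusted p = 0.181), and MFN1-KD exceeded H3.3-KD by 1.87 (adjusted p = 0.00153), a call kept in all 19 alternatives.

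*Hdac3* and *Hdac6* were weakly expressed and their groups were not separated from control. *Hdac3* was at 4.26, 2.75 and 2.53 FPKM in control, 4.52, 1.38 and 1.54 in MFN1-KD and 6.82, 6.40 and 1.96 in H3.3-KD. In control and MFN1-KD library 1 was the highest and in H3.3-KD library 3 was the lowest, and the 3 groups overlapped. *Hdac6* was at 7.21, 3.49 and 3.41 FPKM in control, 2.51, 3.17 and 4.98 in MFN1-KD and 7.23, 6.66 and 5.74 in H3.3-KD. For *Hdac6* only MFN1-KD and H3.3-KD did not overlap. The intervals in H3.3-KD, -0.62 to 1.49 for *Hdac3* and -0.34 to 1.26 for *Hdac6*, both reach past a 2-fold change, and with library weights both genes passed (adjusted p = 0.0488 and 0.036).

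The coactivator genes *Ep300* and *Crebbp* moved together, up in MFN1-KD by value and down in H3.3-KD by test. *Ep300* was at 17.2, 12.9 and 11.2 FPKM in control, 19.2, 28.9 and 22.5 in MFN1-KD and 3.66, 3.67 and 6.38 in H3.3-KD. *Crebbp* was at 44.1, 36.0 and 24.2 FPKM in control, 51.3, 86.1 and 68.0 in MFN1-KD and 12.6, 12.4 and 18.1 in H3.3-KD. For both genes no pair of groups overlapped, with H3.3-KD lowest and MFN1-KD highest. In H3.3-KD *Ep300* fell by 1.42 on the log2 scale (95% interval -2.12 to -0.72, adjusted p = 0.00719), to 33.2% of the control mean, and this held in all 19 alternatives. *Crebbp* fell by 1.20 (-1.88 to -0.51, adjusted p = 0.0145), to 41.4% of control, a call lost without control 1 or 2 (adjusted p = 0.0518 and 0.058) and without H3.3-KD 2 (0.0538). In MFN1-KD the difference was 0.74 for *Ep300* (0.04 to 1.44, adjusted p = 0.192) and 0.97 for *Crebbp* (0.28 to 1.65, adjusted p = 0.101), and neither passed in any of the 19 alternatives. Between the knockdowns *Ep300* differed by 2.16 (adjusted p = 5.8e-04) and *Crebbp* by 2.17 (adjusted p = 5.0e-04), and both differences held in all 19 alternatives. Their longest transcripts, 9566 and 10820 bases, are among the longest of the genes tested, whose median was 2573.

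*Kat5* showed the largest change of the 10 genes. It was at 6.28, 3.21 and 3.57 FPKM in control, 3.48, 5.45 and 5.76 in MFN1-KD and 48.5, 52.6 and 44.8 in H3.3-KD. The H3.3-KD libraries stood well apart from the others, while MFN1-KD and control overlapped. The rise in H3.3-KD was 3.25 (95% interval 2.56 to 3.95, adjusted p = 1.4e-04), with a mean 11.2 times that of control, and ranked 164th in size among all genes that were higher. In MFN1-KD the difference was 0.16 (-0.54 to 0.86, adjusted p = 0.804), and the knockdowns differed by -3.09 (adjusted p = 9.4e-05). The rise and the difference between knockdowns held in all 19 alternatives.

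*Kat2a* also rose in H3.3-KD, with less certainty. It was at 9.18, 5.34 and 4.50 FPKM in control, 4.23, 5.81 and 0.63 in MFN1-KD and 17.2, 21.2 and 18.5 in H3.3-KD. All H3.3-KD libraries were above the rest, and MFN1-KD library 3, the library with the fewest genes above 0, was lowest. The rise was 1.49 (95% interval 0.38 to 2.60, adjusted p = 0.0451) and passed in 7 of the 18 alternatives in which the gene was tested. It was lost under median-ratio and upper-quartile scaling (adjusted p = 0.0817 and 0.114) and without control 2 or 3 (0.127 and 0.152) or H3.3-KD 1, 2 or 3 (0.0832, 0.122 and 0.0986). With the dependence on GC content and transcript length taken out of each library it was 0.25 (adjusted p = 0.691). The *Kat2a* transcript is 57.4% GC, at the 90.6th percentile of the genes tested, beside 54.7% for *Kat5* and a median of 48.9%, and the same removal left *Kat5* at 2.39 (adjusted p = 0.0009). Between the knockdowns *Kat2a* differed by -2.36 (adjusted p = 0.0044), and by -0.997 (adjusted p = 0.0954) after that removal.

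Relative to their size, the group means of *Kat8* were the closest together of the 10 genes. It was at 40.3, 31.2 and 29.7 FPKM in control, 30.6, 28.4 and 50.2 in MFN1-KD and 39.4, 38.4 and 44.1 in H3.3-KD. The groups overlapped in every comparison. The differences from control were 0.07 in MFN1-KD (95% interval -0.53 to 0.68, adjusted p = 0.908) and 0.27 in H3.3-KD (-0.33 to 0.88, adjusted p = 0.481), the latter close to the median of the whole table, and both changed sign in some alternatives. Both 95% intervals lie within a 2-fold change.

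**Figure D2:**
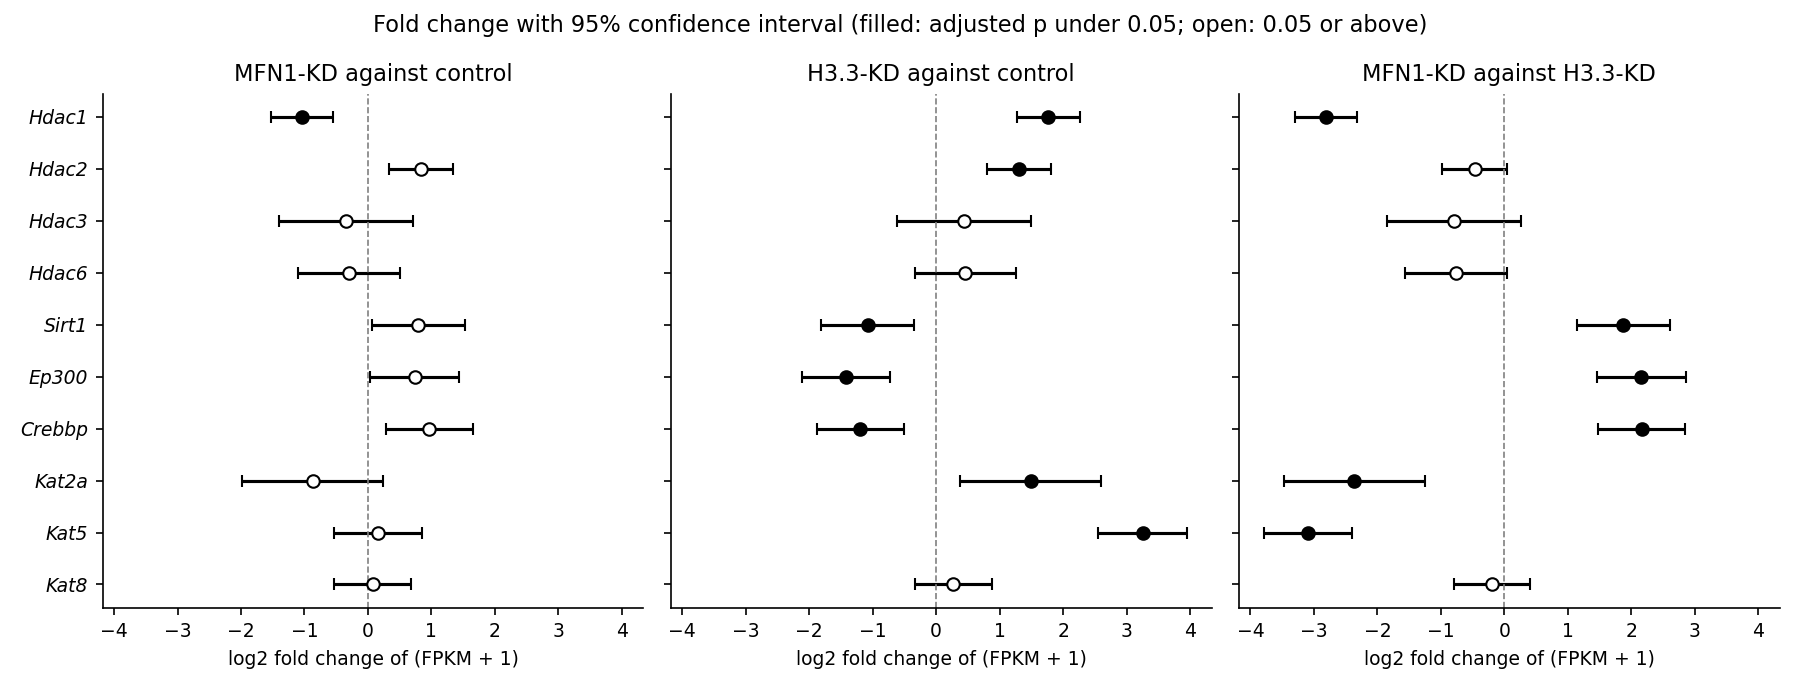
Log2 fold change of (FPKM + 1) for the 10 genes in the 3 comparisons; points are the limma estimates, bars their 95% confidence intervals, and filled points have an adjusted p under 0.05. *Hdac1* is below 0 in MFN1-KD and above 0 in H3.3-KD, *Ep300* and *Crebbp* show the opposite signs, and *Kat5* lies at 0.16 and 3.25.

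Separation of the libraries was also counted. In MFN1-KD 3 members lay wholly above control (*Hdac2*, *Ep300* and *Crebbp*) and 1 wholly below (*Hdac1*), where 28.2% of all genes did not overlap control (11.4% above and 16.8% below). In H3.3-KD 4 lay above and 3 below, where 53.4% of all genes did not overlap (34.5% above and 18.9% below). Between the knockdowns 3 lay above and 5 below, against 47.9% of all genes (14.8% above and 33.1% below). The threshold of the study, a change beyond 2-fold at an unadjusted p under 0.05, was used there with DESeq2 and here with limma, so the counts are not the study's. With it the count was 1 of 10 in MFN1-KD, lower, where 14.1% of all genes passed (5.02% higher and 9.05% lower). It was 7 of 10 in H3.3-KD, 4 higher and 3 lower, where 33.3% passed (23.9% and 9.39%), and 6 of 10 between the knockdowns, 3 higher and 3 lower, where 40.1% passed (11.0% and 29.1%). The median of the 10 log2 fold changes lay 0.20 (MFN1-KD) and 0.19 (H3.3-KD) above that of the whole table, and after removal of the GC and length trend 0.55 above it in MFN1-KD, while in H3.3-KD its direction turned (-0.10 relative to the whole table). Of all genes tested in H3.3-KD, 2841 rose and 1187 fell, and 2074 and 1777 did so after median-ratio scaling, which left 3 members higher and 3 lower. The corresponding counts between the knockdowns were 1437 and 3591, and 2179 and 2674 after scaling, with 3 members higher and 3 lower under both.

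Balances and sums of related genes were chosen after the values were seen and are given as descriptions. A share within a library does not depend on the scale of that library, while a sum of FPKM does. *Hdac1* made up 64.5, 67.3 and 65.6% of the summed FPKM of *Hdac1* and *Hdac2* in control, 32.7, 35.9 and 32.9% in MFN1-KD and 73.2, 73.8 and 70.5% in H3.3-KD. The 3 groups did not overlap, and *Hdac2* was the more abundant of the pair in MFN1-KD only. The sum of the pair was 118 ± 12.1 FPKM (SD, n = 3) in control and 111 ± 22.1 in MFN1-KD, which overlapped, and 370 ± 50.6 in H3.3-KD. *Ep300* and *Crebbp* together came to 48.5 ± 13.0 FPKM in control and 92.0 ± 22.3 in MFN1-KD, while H3.3-KD had 18.9 ± 4.84, again without overlap. *Kat5* made up 11.2 ± 2.11% of *Kat5* plus *Kat8* in control and 12.2 ± 3.37% in MFN1-KD, while H3.3-KD had 54.4 ± 3.76%. The 5 deacetylases summed to 176 ± 30.2, 204 ± 40.7 and 404 ± 47.0 FPKM in control, MFN1-KD and H3.3-KD, and the 5 acetyltransferases to 92.9 ± 22.3, 137 ± 24.6 and 127 ± 5.36.

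**Figure D3:**
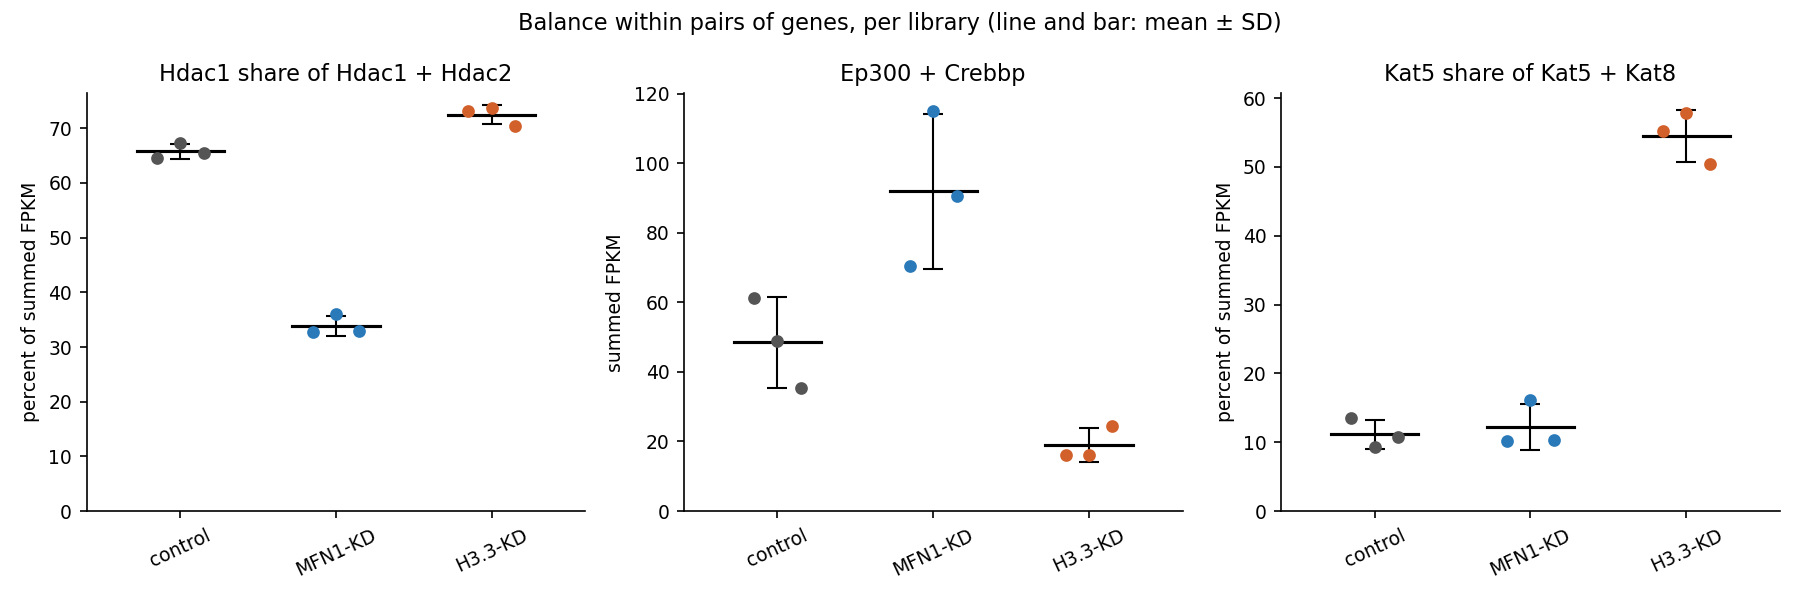
Share of *Hdac1* in the summed FPKM of *Hdac1* and *Hdac2* (left, percent), summed FPKM of *Ep300* and *Crebbp* (middle) and share of *Kat5* in *Kat5* plus *Kat8* (right, percent); points are libraries, line and bar are mean ± SD (n = 3). The *Hdac1* share lies near 66% in control, 34% in MFN1-KD, 72% in H3.3-KD.

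Some members share sequence with other annotated genes, so reads could have been divided between them. *Hdac1* (chr4:129516104-129542713, minus strand, GRCm38) has the processed pseudogenes *Gm10093*, 99.4% identical over 1444 aligned bases, and *Gm4864*, 94.6% identical over 1469. *Gm10093* was at 10.2, 10.1 and 9.28 FPKM in control, 2.58, 3.46 and 0.24 in MFN1-KD and 65.5, 66.0 and 46.8 in H3.3-KD. *Gm4864* was at 12.1, 9.99 and 9.17 FPKM in control, at 0.82 and 1.72 and listed at 0 in MFN1-KD, and at 63.7, 67.5 and 53.0 in H3.3-KD. Both pseudogenes followed the order of *Hdac1* over the groups, and all 3 levels are uncertain as far as reads were divided among them, which was not tested. The pseudogene *AC125456.1*, 96.3% identical to *Hdac1* over 1450 bases, has no entry under this name, so reads given to it cannot be seen. The share of *Hdac1* in *Hdac1* plus *Hdac2* carries the same uncertainty. *Kat5* (chr19:5603014-5610237, minus strand) shares 426 exonic bases, 12.1% of its exons, with *Rnaseh2c* on the opposite strand, and the strand setting of the counting is not given in the sources used here. *Rnaseh2c* was at 22.1, 22.8 and 27.7 FPKM in control, 38.1, 25.5 and 20.5 in MFN1-KD and 34.2, 20.6 and 17.9 in H3.3-KD, with overlapping groups and a difference of -0.04 in H3.3-KD (adjusted p = 0.938) while *Kat5* rose. *Kat8* shares 122 bases with *Prss8*, which stayed at or under 0.66 FPKM, and *Sirt1* shares 65 bases with an antisense RNA.

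**Figure D4:**
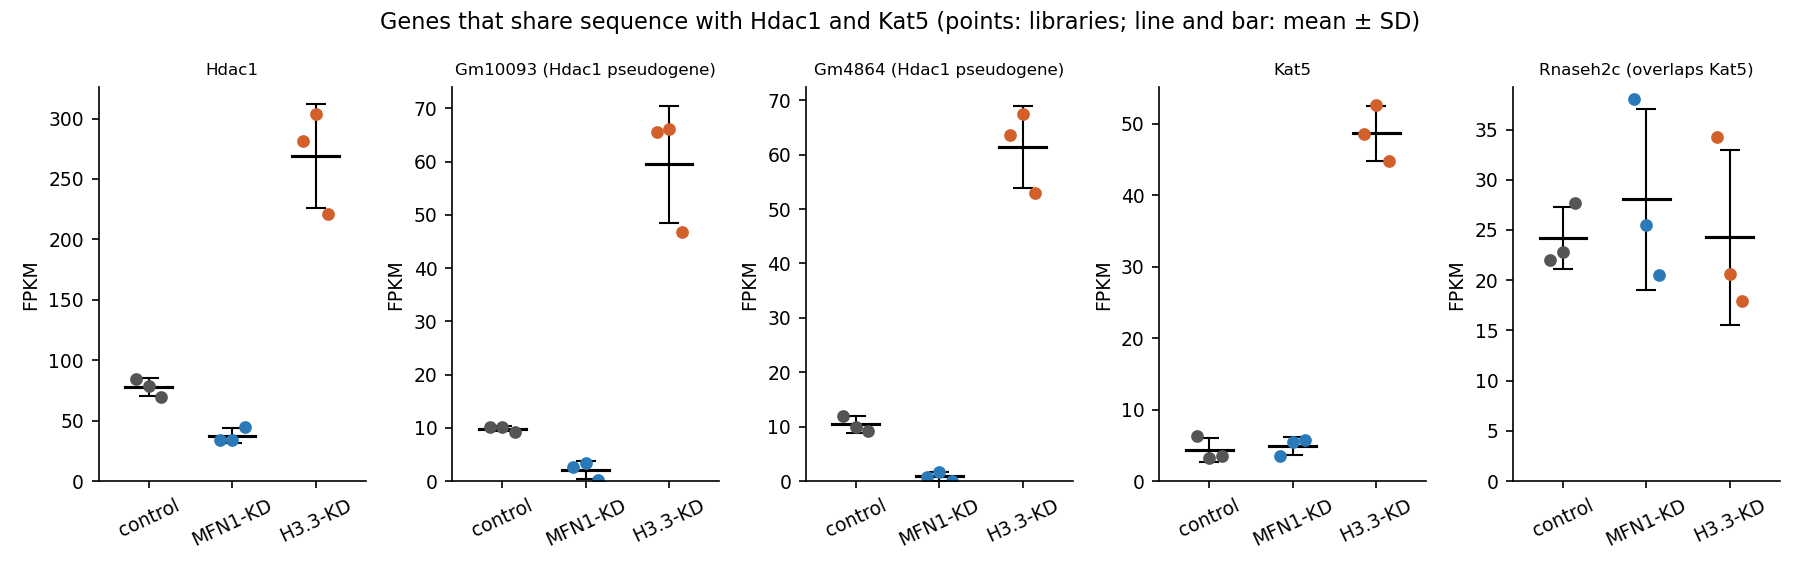
FPKM of *Hdac1*, its processed pseudogenes *Gm10093* and *Gm4864*, *Kat5* and the overlapping gene *Rnaseh2c*; points are libraries, line and bar are mean ± SD (n = 3), each panel with its own linear axis from 0. The pseudogenes are lowest in MFN1-KD and highest in H3.3-KD, as *Hdac1* is, while *Rnaseh2c* overlaps between all groups.

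The gene with the profile most like each member was found by Pearson's r of log2(FPKM + 1) over the 9 libraries among all genes tested. As the libraries form 3 groups and share their scaling, r mainly reflects the order of the group means and is given as a description. It was 0.990 for *Hdac1* and *Sae1*, whose level was 79.9, 32.1 and 268 FPKM on average in control, MFN1-KD and H3.3-KD. For *Hdac2* it was *Rrs1* (0.974), for *Hdac3* *Serinc2* (0.944), for *Hdac6* *Zfp592* (0.928) and for *Sirt1* *Sec16a* (0.983). *Ep300* was nearest to *Trim33* (0.991), with *Crebbp* among its nearest genes (0.987), and *Crebbp* was nearest to *Usp9x* (0.989). *Kat2a* was nearest to *Lcor* (0.997), *Kat5* to *Zc3h3* (0.996) and *Kat8* to *Rnf135* (0.961). *Zc3h3* averaged 0.51 FPKM in control and 0.49 in MFN1-KD against 6.38 in H3.3-KD. It thus passed the filter on low values only through the group in which *Kat5* was high.

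The other enzymes of the same classes were read from lists that were also chosen with earlier results of these data known. As a description, the counts of all lists in H3.3-KD stand against 21.8% of all genes called higher and 9.12% lower. Of 13 further deacetylase genes 7 passed the filter on low values, and in H3.3-KD 3 of these rose and none fell, with a median 0.92 above that of all genes, or 0.13 above it after removal of the GC and length trend. They were *Hdac4* (1.25, adjusted p = 0.0266) and *Hdac5* (1.47, 0.0273), both class IIa deacetylases, and the nucleolar sirtuin *Sirt7* (1.18, 0.0192). *Hdac4* averaged 0.56 FPKM in control and 0.43 in MFN1-KD, against 2.81 for H3.3-KD, so it passed the filter only through the group in which it was high. The count of 3 includes it though its rise cannot serve as support, and without it *Hdac5* and *Sirt7* remain. None of the 3 passed under median-ratio or upper-quartile scaling or after removal of the GC and length trend, and each was also lost without control 2 or 3 (adjusted p up to 0.246, 0.759 and 0.888 over all alternatives). *Hdac4* was further lost without H3.3-KD 1 or 3, and *Hdac5* and *Sirt7* without H3.3-KD 2. Of 11 further acetyltransferases, all tested, 3 rose and 1 fell. *Kat7* (HBO1), which acetylates histone H3 and H4, rose by 1.68 (adjusted p = 0.00138) and *Kat6b* by 1.46 (0.00309), both in all 19 alternatives. *Naa60* rose by 1.62 (0.0245), a call kept in 9 of 18 alternatives. Among single libraries it was lost without control 2 or 3 or H3.3-KD 1 or 2 (up to 0.162 over all alternatives). *Hat1*, which acetylates newly made histone H4, fell by 0.95 (adjusted p = 0.0166), lost without control 2 or 3 or H3.3-KD 2 or 3 (up to 0.0617). With median-ratio scaling 3 rose and 3 fell, and after removal of the GC and length trend 2 rose and 2 fell. In MFN1-KD none of the 18 tested genes of these lists passed in limma. At an unadjusted p under 0.05, 0 were higher and 1 lower, where 3025 of the 13011 genes tested passed in either direction. The median relative to all genes was -0.56 for the deacetylases and 0.51 for the acetyltransferases, or -0.39 and 0.17 after removal of the GC and length trend. Without MFN1-KD library 3 the list medians themselves were -0.25 and 0.34, where that of all genes was 0.01.

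Among the partners of *Hdac1* and *Hdac2*, 6 of the 9 tested genes of NuRD, the nucleosome remodelling and deacetylase complex, rose in H3.3-KD and none fell, where 21.8% of all genes rose. The median stood 1.60 above that of all genes. The count was 6 under both scalings and without any single library, and after removal of the GC and length trend it was 4 and the median stood 0.74 above that of all genes. The smallest p was that of *Mta2*, the scaffold subunit, at 15.5 ± 5.00 FPKM (SD, n = 3) in control and 121, 127 and 257 in H3.3-KD (3.32, adjusted p = 1.98e-04). Of 13 SIN3 genes 5 rose and 1 fell. *Suds3* rose by 2.21 (adjusted p = 0.00112) and *Sap18*, an abundant subunit at 548 ± 50.3 FPKM in control, was at 171, 128 and 122 in H3.3-KD (-1.97, adjusted p = 1.77e-04). Upper-quartile scaling gave 4 rises and 3 falls for this list, removal of the GC and length trend 3 and 2, and leaving out control 2, control 3 or H3.3-KD 1 gave 3 and 1. Of 7 CoREST genes 3 rose, led by the corepressor *Rcor2*, at 1.67, 1.12 and 1.15 FPKM in control and 34.1, 45.4 and 51.6 in H3.3-KD (4.26, adjusted p = 7.59e-05). The CoREST median stood 0.04 above that of all genes. Its rises numbered 2 after removal of the GC and length trend and 2 without control 2. *Mta2*, *Suds3*, *Sap18* and *Rcor2* passed in all 19 alternatives. None of the 4 tested genes of the NCoR and SMRT complex, the partners of *Hdac3*, passed in limma. At an unadjusted p under 0.05, 1 was higher and 0 lower, where 5472 of the 13011 genes tested passed in either direction. *Ncor1* had the smallest p with 0.79 (adjusted p = 0.0649).

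The partners of the acetyltransferases were counted in the same way. Of 17 SAGA and ATAC genes, the complexes of *Kat2a*, 5 rose and 1 fell in H3.3-KD, with a median 0.08 above that of all genes, and after removal of the GC and length trend 2 rose and 4 fell. Without control 2, control 3 or H3.3-KD 3 it was 2 and 1, and without H3.3-KD 1 it was 3 and 1. *Taf5l* rose by 2.33 (adjusted p = 8.53e-04), and *Eny2*, a small subunit at 615 ± 95.3 FPKM in control, was at 153, 150 and 120 (-2.11, adjusted p = 2.90e-04). Of 16 genes of the TIP60 complex, that of *Kat5*, 4 rose and none fell, a share close to that of all genes, or 3 and 1 with median-ratio scaling, and the median stood 0.11 above that of the whole table. After removal of the GC and length trend 1 rose and 1 fell and the median was -0.15 relative to all genes, so that its direction turned. The rises numbered 2 without control 2, control 3 or H3.3-KD 3. *Vps72*, a subunit that binds H2A.Z, rose by 1.99 (adjusted p = 5.42e-04). Of 11 MSL and NSL genes, the complexes of *Kat8*, 5 rose and none fell (4 and 1 with median-ratio scaling, 1 and 1 after removal of the GC and length trend, 3 and 0 without control 3), with *Kansl2* at 1.65 (adjusted p = 0.00165). Of 14 readers of acetyl-lysine 6 rose and none fell (5 and 2 with median-ratio scaling, 4 and 1 after removal of the GC and length trend), with the bromodomain gene *Baz2a* at 2.13 (adjusted p = 9.15e-04). *Taf5l*, *Eny2*, *Vps72*, *Kansl2* and *Baz2a* kept their call in all 19 alternatives. None of the 8 genes of acetyl-CoA and NAD supply passed in limma. At an unadjusted p under 0.05, 2 were higher and 1 lower, where 5472 of the 13011 genes tested passed in either direction.

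At an unadjusted p under 0.05 in limma, 20 of the 127 tested genes among the members and lists were higher in MFN1-KD and 14 lower. Of the 13011 genes tested, 3025 passed at that cutoff, in either direction. At an adjusted p under 0.05, 4 of the 127 fell and none rose, a share close to the 3.35% of all genes called. Besides *Hdac1* these were the SIN3 gene *Brms1* (-1.47, adjusted p = 0.0333), the TIP60 gene *Vps72* (-1.34, 0.0359) and *Pdhb* (-0.98, 0.0409), a subunit of pyruvate dehydrogenase. Each of these 3 lost its call without control 1, 2 or 3 and without H3.3-KD 1 or 2, and *Vps72* and *Pdhb* also without MFN1-KD 1 or 3 (adjusted p up to 0.148, 0.148 and 0.161). Their calls were kept in 9, 8 and 8 of 19 alternatives. In H3.3-KD 44 of the 127 rose and 6 fell, where 21.8% and 9.12% of all genes did. These counts were 34 and 13 with median-ratio scaling, 32 and 15 with upper-quartile scaling and 22 and 15 after removal of the GC and length trend, and the rises numbered 28 without control 2 or control 3. The 44 include *Hdac4*, which passed the filter only through H3.3-KD. *Vps72* was at 19.0, 15.7 and 15.1 FPKM in control, 5.43, 7.47 and 5.04 in MFN1-KD and 81.1, 57.7 and 68.8 in H3.3-KD, without overlap between groups, the order also seen for *Hdac1*. Between the knockdowns 14 of the 127 were higher in MFN1-KD and 51 lower, where 11.0% and 27.6% of all genes were. The split was 26 and 35 with median-ratio scaling, 29 and 33 with upper-quartile scaling, and turned to 24 and 19 after removal of the GC and length trend. The 51 also include *Hdac4*. Apart from the members, the smallest p-values of these differences belonged to *Vps72* (-3.33, adjusted p = 3.20e-05), *Rcor2* (-4.13, 4.90e-05) and *Mta2* (-3.32, 1.09e-04).

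**Figure D5:**
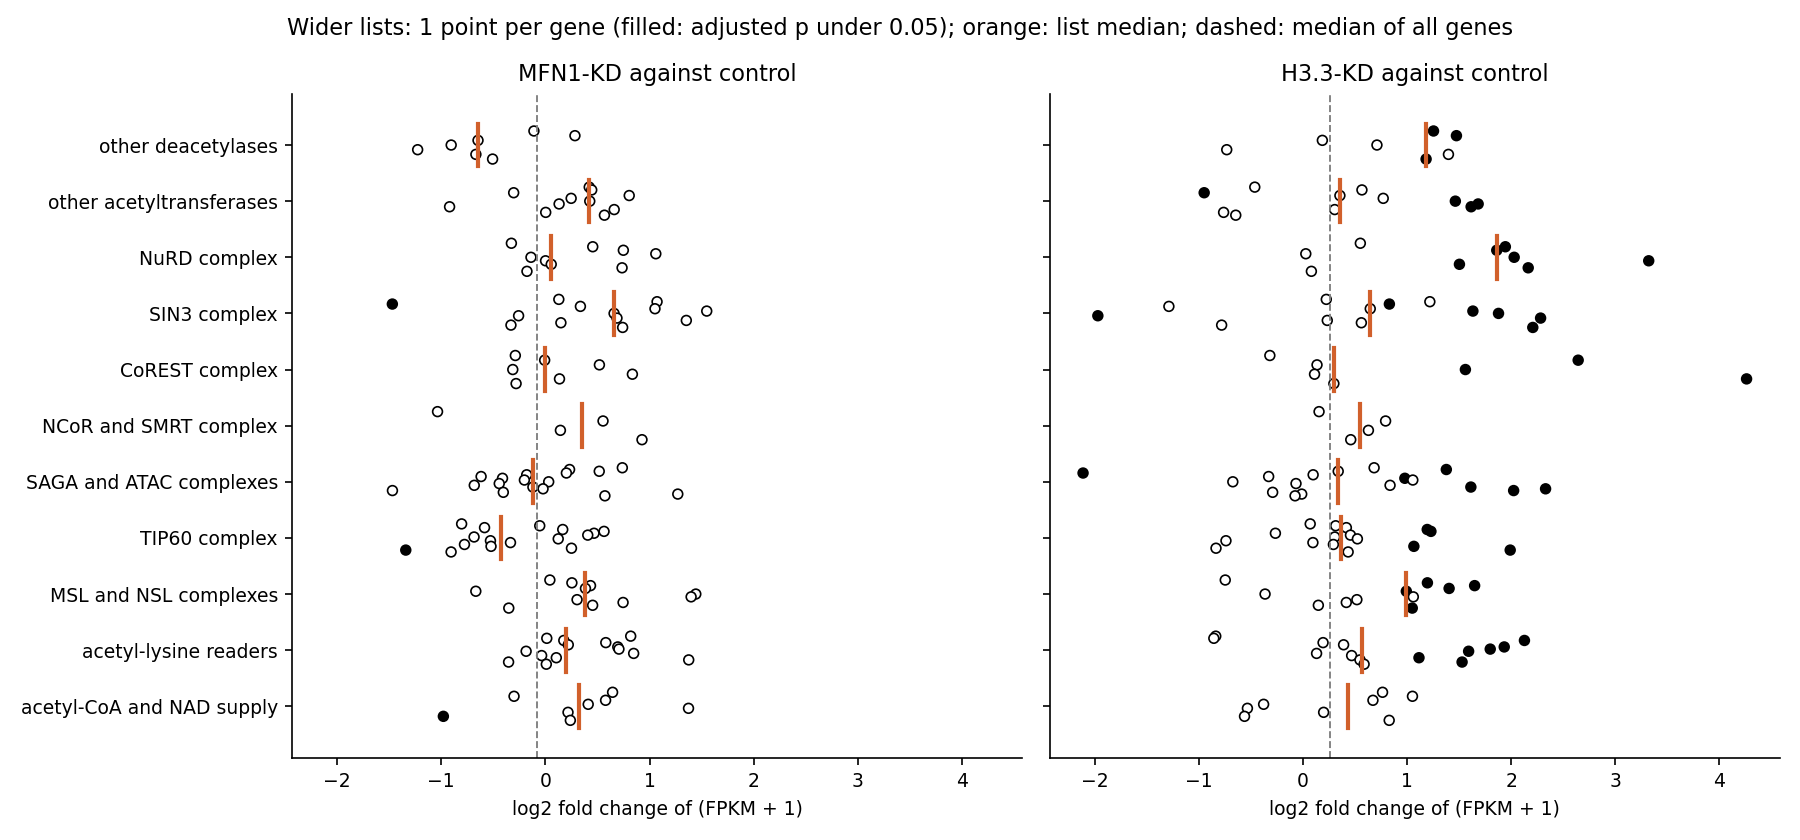
Log2 fold change of (FPKM + 1) of each tested gene in the 11 lists of other enzymes, complex partners, readers and cofactor supply, in MFN1-KD (left) and H3.3-KD (right) against control; filled points have an adjusted p under 0.05, orange lines are list medians and dashed lines the median of all genes. The NuRD list has 6 filled points, all above 0, in H3.3-KD and none in MFN1-KD.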

How the data were processed

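RNA from 9 pools of 8-cell embryos (3 groups of 3) was read by Smart-Seq2. Per the labels, the authors trimmed reads with cutadapt 1.16 and mapped them to mm10 with STAR. They deposited FPKM per gene symbol, rounded to 2 decimals, and the program, annotation and strand setting behind these values are not given in the sources used here. Read counts were not used here, so the count test planned as an option, confidence intervals from counts and depth are not given. Genes averaging 1 FPKM or more (13011) were fitted as log2(FPKM + 1) in limma 3.58.1 (R 4.3.3, trend and robust options, all 9 libraries, no covariate), with Benjamini-Hochberg adjustment over all genes tested. Calls are an adjusted p under 0.05, or more than 2-fold with an unadjusted p under 0.05, the threshold of the study.

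The members and the 11 lists were chosen with earlier results of these data known. Named genes are all members, the targeted genes, the other deacetylases and acetyltransferases, for each further list the gene with the smallest p in each direction, and the gene most like each member. Sequence-sharing genes and the balances between members were chosen after their values were seen. Positions, overlaps, lengths and GC content (known for 98.4% of genes tested) come from GENCODE M21 (GRCm38), and similar transcripts were found with BLAST 2.17.0 (at least 85% identity over 200 bases). On simulated data with 200 of 13011 genes changed by 2 on the log2 scale in MFN1-KD against control, 94 were recovered with 4 false calls. The simulated noise was independent between genes, with no differences between whole libraries and no change in H3.3-KD. These figures therefore do not show how many calls in the real libraries are false. Figures were drawn with matplotlib 3.10.9 under Python 3.11.15.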

Additional observations from a re-analysis of the deposited data

How the results depend on the processing

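The alternatives were median-ratio and upper-quartile scaling, a pseudocount of 0.1, no filter on low values, a mean of at least 10 FPKM (which leaves out *Hdac3*, *Hdac6* and *Kat2a*), only the 6 libraries compared, library weights, the replicate number as a block, removal of the GC and length trend, the last 2 together, and each library left out in turn. Of 561 fold changes of members under these settings, 504 kept direction and side of the threshold, 34 lost a call, 7 gained one and 16 changed sign. Among genes named beside the members, 816 of 960 kept both, 140 lost a call and 4 changed sign.

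The count of 1 member called in MFN1-KD (*Hdac1*) was 0 under median-ratio scaling, without a filter, with only the 6 libraries, and after removal of the GC and length trend, and 2 with the 10 FPKM minimum or library weights (*Hdac2* added). With single libraries left out it ranged from 0 to 1. At 2-fold and unadjusted p under 0.05 it was 0 after the GC and length removal and 1 to 2 with libraries left out, and under both scalings the 1 gene was *Crebbp* in place of *Hdac1*. In H3.3-KD the count of 7 ranged from 4 to 7 with libraries left out, the lowest without control 2 and without H3.3-KD 2. Between the knockdowns the count of 6 ranged from 6 to 7. Over all genes the MFN1-KD calls, 150 higher and 286 lower, fell to 0 and 2 without a filter, to 0 and 0 with only the 6 libraries, without control 2 or without control 3, to 0 and 1 without H3.3-KD 2 and to 6 and 25 with the block, and rose to 570 and 823 with library weights. The cause was not tested.

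The signs that changed belong to genes without a call. For *Kat8* in MFN1-KD the value was -0.0064 with library weights and -0.0092 without control 3, and with libraries left out it ranged from -0.17 (without MFN1-KD 3) to 0.22. For *Kat8* in H3.3-KD it was -0.069 and -0.15 under median-ratio and upper-quartile scaling and -0.15 after the GC and length removal, and between the knockdowns 0.21, 0.28 and 0.74. After the GC and length removal *Hdac3* was at -0.088 and *Hdac6* at -0.25 in H3.3-KD, and *Hdac2* between the knockdowns was 0.016 under upper-quartile scaling. *Rnaseh2c* ranged from -0.069 (without MFN1-KD 1) to 0.36 in MFN1-KD with libraries left out, and from -0.31 to 0.14 in H3.3-KD, where it was above 0 without control 3 (0.055), H3.3-KD 2 (0.043) and H3.3-KD 3.

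Whether the replicate numbers pair the libraries is not stated and could not be settled from the values. Deviations from the group means of same-numbered libraries correlated at -0.05 to 0.16, with 2 of 9 pairs over 0.1. These 2 (control 2 with MFN1-KD 2, 0.16, and MFN1-KD 3 with H3.3-KD 3, 0.14) were the highest of all pairs between groups. Differently numbered libraries reached at most 0.07. With the replicate block the count of members called was 0 in MFN1-KD, 7 in H3.3-KD and 6 between the knockdowns, and with block and GC and length removal together 0, 6 and 5.

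FPKM without counts gives no depth, so levels of a few FPKM, as in *Hdac3*, *Hdac6* and *Kat2a*, carry an unknown counting error. Pools of embryos cannot show variation between embryos, and 3 libraries a group leave standard errors of 0.22 (*Hdac1*) to 0.50 (*Kat2a*) on the log2 scale.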
